A study of Daphnia magna with 144 samples.

Results

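The probes described here are 264 of the 14338 Daphnia magna probes on the arrays: those whose level varied widely between chemicals and was highest in a pyrethroid or an organophosphate. The level of a probe is log2 of the median spot intensity less its local background, with 50 added, after quantile normalisation over 144 arrays. Its span is the highest minus the lowest of the means of 36 chemicals. A member has a span over 3 and up to 5 and its highest mean in Bifenthrin, Lamda Cyhalothrin or Permethrin (pyrethroids) or in Chlorpyrifos, Diazinon or Parathion (organophosphates). A maximum of 300 members was allowed and was not reached. The peak and the span were thus chosen from the measured levels, and they are given as a description with no test.

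The study exposed the water flea Daphnia magna to 36 chemicals, 1 at a time, and hybridised whole-animal RNA labelled with Cy3 to 4 arrays per chemical. In each exposure, 20 animals aged 14 days spent 24 h in 1 L of culture medium with the chemical, at 1/10 of the LC50 (the level that kills 50 percent of the animals). The labels tie each chemical to a control series, whose name is taken here as the vehicle. Ethanol was the vehicle of 15 chemicals, culture medium alone of 13, methanol of 3, acetone of 3 and DMSO of 2. In medium alone, in mg/L, were 20 hydroxyecdysone (1.37), Acrylonitrile (1.27), Arsenic (0.54), Cadmium (0.018), Chromium (0.054), Copper (0.00615) and Manganese (2.8). The others in medium, in mg/L, were MTBE (145), Nickel (0.69), Phenol (0.79), Selenium (1.33), Silver (4.3e-05) and Zinc (1.77). Ethanol carried Bifenthrin, at 0.0001 mg/L, and Lamda Cyhalothrin, at 0.0006 mg/L. Also in ethanol, in mg/L, were 2-chloro vinyl ether (17.3), Beta-benzene hexachloride (146), Beta-estradiol (1), Bis2-ethylhexyl phthalate (0.039), Chloroform (7.47) and Dichlorobenzene (1.51). Ethanol further carried, in mg/L, Methoxychlor (0.0944), Nonylphenol (0.0071), Toluene (3.58), Toxaphene (0.172) and Trichloroethylene (2.49). It also carried PonasteroneA and Pyripoxyfen, whose labels give molar doses. Permethrin (0.00041 mg/L) was dosed in DMSO, which it shared only with the polycyclic aromatic hydrocarbon Phenanthrene (0.366 mg/L). Chlorpyrifos (0.00129 mg/L) was dosed in methanol, shared with Aroclor (0.166 mg/L), a mixture of polychlorinated biphenyls, and Methylfarnesoate, a crustacean hormone whose dose label mixes units and is not printed. Diazinon (0.0003 mg/L) and Parathion (0.00226 mg/L) were dosed in acetone, shared with the herbicide Atrazine (2.07 mg/L). Each chemical was given at a single concentration, so a chemical and its dose cannot be told apart, and the pooled whole animals give no tissue of origin. In such RNA, fewer cells of a type and less RNA per cell cannot be told apart.

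Pyrethroids keep the voltage-gated sodium channels of nerve cells open. Organophosphates block acetylcholinesterase, the enzyme that clears the transmitter acetylcholine from the synapse. Those with a phosphorus-sulphur double bond need oxidation by cytochromes P450 to their active form. Both classes are highly toxic to arthropods, Daphnia included. The files and the reference table used here pair no gene with these probes, so each probe is given by its identifier and no gene function is assigned.

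The arrays differed in brightness, and the 4 arrays of many chemicals fell into pairs. The median foreground intensity was 66 to 116 per array, and 52.2% to 95.2% of probes lay above background, set at 3 SDs over the mean of 77 negative control spots. The Permethrin arrays were among the dimmest, with a median foreground of 68 to 70 and 62.3% to 75.4% of probes above background. In 22 of the 36 chemicals the SD of the difference between arrays was over 1.5 times larger across the closest pairs than within them (Diazinon 0.24 across and 0.12 within, Parathion 0.26 and 0.10, Chlorpyrifos 0.22 and 0.11, Copper 0.40 and 0.12). It was hardly larger in Permethrin (0.14 across and 0.13 within), Lamda Cyhalothrin (0.13 and 0.12) and Bifenthrin (0.12 and 0.10). What the pairs share is not labelled, and whether they are technical was not tested. Nothing in the labels says that the arrays of a chemical came from separate cultures, so p-values measure only the spread between arrays, which may be technical.

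Diazinon and Permethrin were the peak of most members. Of the 264, 108 (40.9%) were highest in Diazinon and 92 (34.8%) in Permethrin, which placed these chemicals first and second among all 36. Chlorpyrifos was the peak of 33, Lamda Cyhalothrin of 17, Parathion of 11 and Bifenthrin of 3. The largest counts among the other 30 chemicals were 52 in 20 hydroxyecdysone, 51 in Methoxychlor and 50 in Atrazine. The members were 31.3% of the 844 probes with a span over 3 and up to 5, and the 6 pesticides were 16.7% of the chemicals. Each class thus held a chemical with many peaks beside chemicals with few. Among the 284 probes with a span over 5, which are not members, 117 were highest in the 6 pesticides, 49 of them in Diazinon and 43 in Permethrin. At the edges of the rule, the member of smallest span was DM07816 at 3.01, highest in Permethrin. Just outside lay DM10315 at 2.99, also highest in Permethrin, and DM06347 at 5.01, highest in Diazinon.

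**Figure D1:**
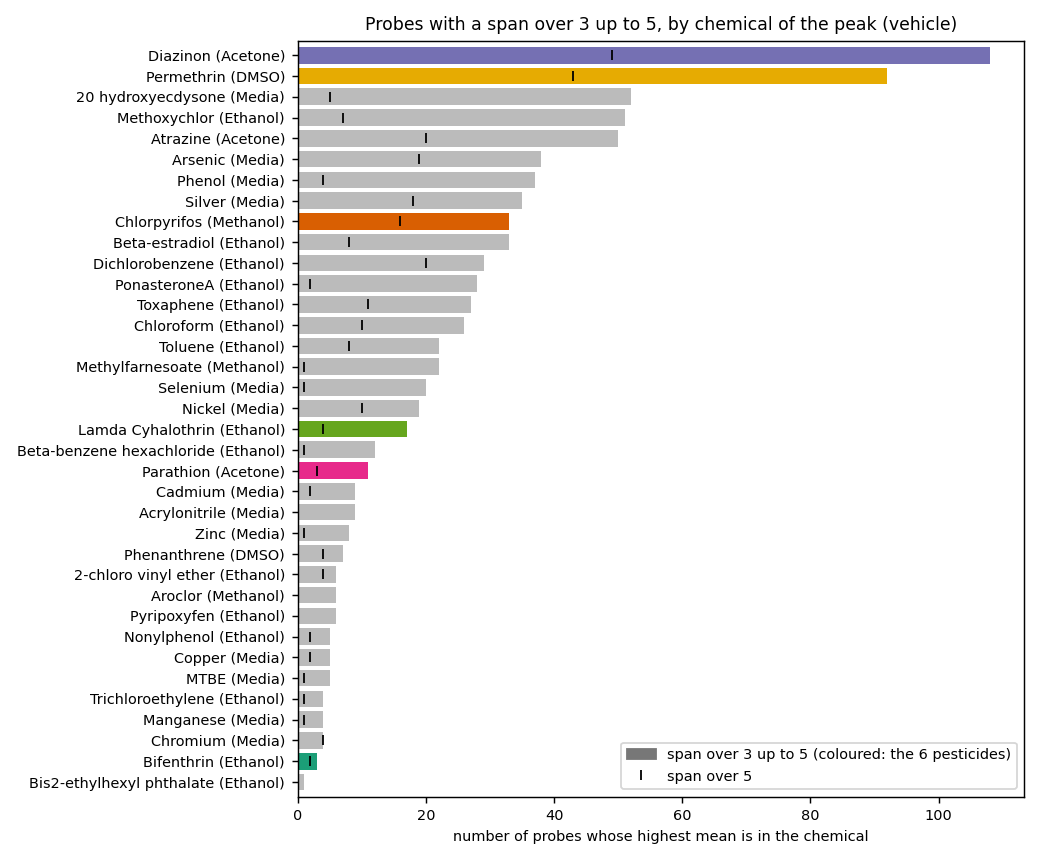
Bars show, for each of the 36 chemicals (vehicle in brackets), how many of the 844 probes with a span over 3 and up to 5 had their highest mean there, with the 6 pesticides coloured, and vertical ticks show the same count for the 284 probes with a span over 5. Diazinon (108) and Permethrin (92) have the longest bars and Bifenthrin (3) is near the bottom.

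The members were bright at their peak and the arrays of the peak lay close together, but the step down to the next chemical was often small. The mean at the peak was 8.79 to 16.0 (quartiles 9.89 and 12.48), against quartiles of 6.13 and 8.70 in the lowest chemical, and the spans had a median of 3.78. The SD over the 4 peak arrays had a median of 0.07 and passed 0.3 in 8 members. The peak exceeded the second chemical by a median of 0.30, by more than 1 in 20 members and by less than 0.1 in 55. In 152 members no array of the second chemical reached the arrays of the peak. The peak was chosen from these same arrays, and the count was not made for other probes. All 264 were above background on the 4 peak arrays, 207 also on the 4 arrays of their lowest chemical, and 186 on all 144 arrays. In 20 members no array of the lowest chemical was above background, so the span is a lower bound there. At least 1 peak array was saturated in 3 members. For the 15 members spotted 2 times, the 2 spots differed by a median of 0.20.

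Most members were high in a group of chemicals and not in 1 chemical alone. A member lay over the midpoint between its lowest and highest mean in a median of 16 of the 36 chemicals. It did so in 6 or fewer chemicals for 23 members, and in 30 or more for 36 members. Breadth of this kind was not particular to the members. The other variable probes are the 580 in the same range of span that were highest in the other 30 chemicals. Of these 580, 228 lay over the midpoint in Dichlorobenzene and 398 in MTBE, the fewest and the most among the 36 chemicals. Lying over the midpoint does not place a probe near its peak: DM06747 was over it in 34 chemicals, with a mean of 14.66 at the peak and a median of 13.48 over the 36 chemicals. The median was 11.5 chemicals for the Permethrin members, 19.5 for Diazinon, 23 for Chlorpyrifos and for Lamda Cyhalothrin, 27 for Parathion and 30 for Bifenthrin. The Permethrin members also resembled each other most: their median pairwise correlation over the means of the 36 chemicals was 0.77, against 0.41 within the Diazinon members, 0.39 within Chlorpyrifos, 0.45 within Parathion, 0.29 within Lamda Cyhalothrin and 0.04 over all 264. Within the Permethrin members the 10th and 90th percentiles were -0.01 and 0.93, so some pairs of them did not resemble each other. These correlations share arrays and normalisation among all probes and are a description.

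**Figure D2:**
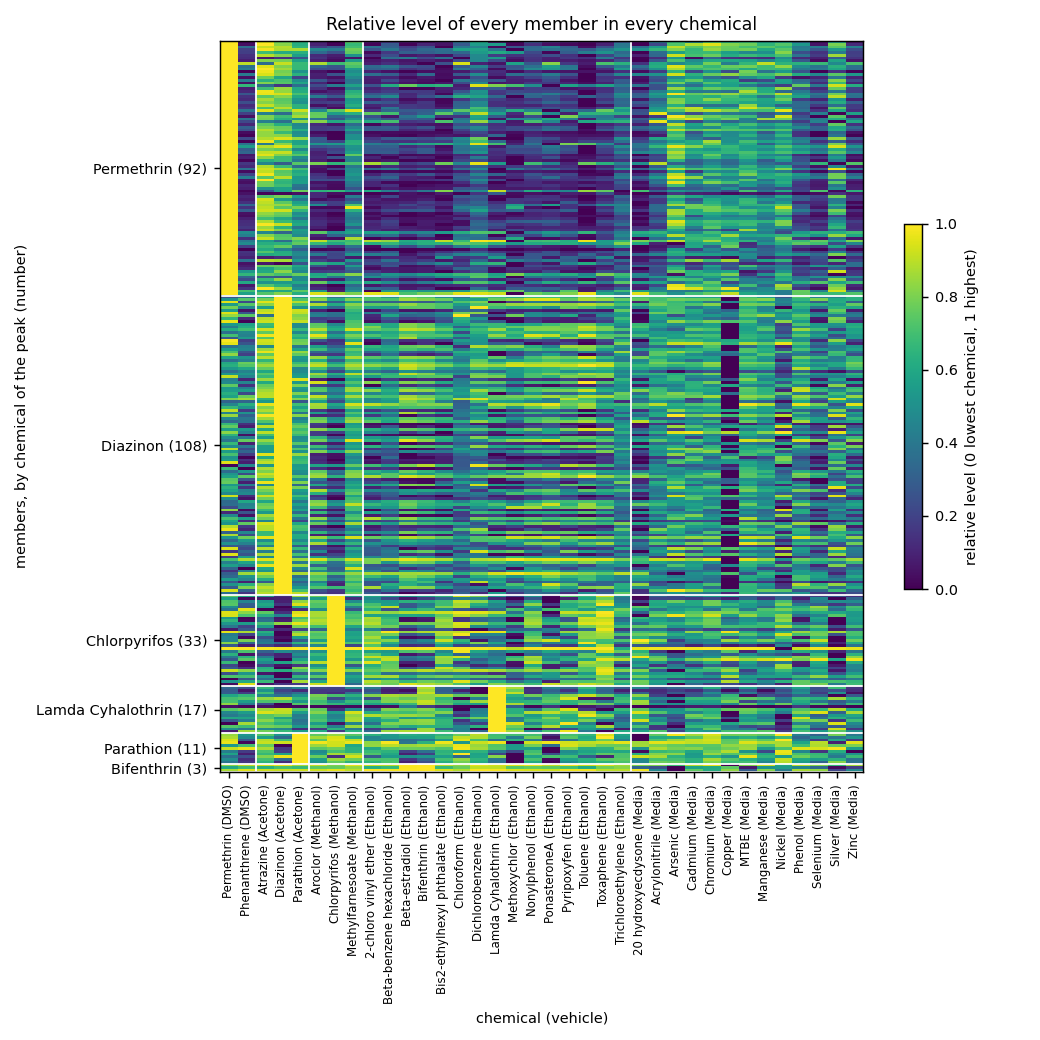
Each row is 1 of the 264 members, grouped by the chemical of its peak, and each column is 1 of the 36 chemicals (vehicle in brackets), with colour giving the relative level from 0 in the lowest chemical to 1 in the highest. Most Permethrin rows show a shared pattern (high in Atrazine, Diazinon and Arsenic), while the Diazinon rows range from high to low in Permethrin and are often lowest in Copper.

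The 92 Permethrin members were next highest in Atrazine, Arsenic and Diazinon, not in the other pyrethroids. The second chemical was Atrazine in 41 of them, Arsenic in 13, Diazinon in 7 and Lamda Cyhalothrin in 5. On the relative scale, where 0 is the lowest chemical and 1 the highest, their median was 0.80 in Atrazine, 0.75 in Diazinon, 0.69 in Arsenic, 0.63 in Chromium and 0.57 in Parathion. It was 0.17 in Lamda Cyhalothrin, 0.15 in Bifenthrin and 0.12 in Chlorpyrifos. It was 0.14 in Phenanthrene, the other chemical in DMSO. Diazinon lay over the midpoint in 80 of the 92 members and Bifenthrin and Phenanthrene in 8 each. Toluene was the lowest chemical of 23. The 12 members with Diazinon under the midpoint had a median of 0.38 in Atrazine and 0.73 in Dichlorobenzene. Of the 580 other variable probes, 322 lay over the midpoint in Diazinon, 334 in Bifenthrin and 320 in Phenanthrene.

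The member of largest span was DM05065, with 10.69, 10.76, 10.76 and 10.69 in Permethrin, against 5.72, 5.73, 5.78 and 5.72 in Chlorpyrifos, its lowest chemical. No Chlorpyrifos array was above background, and Permethrin was at least 28.5-fold higher. Its mean was 10.45 in Atrazine, 9.59 in Diazinon and 8.91 in Parathion, but 6.14 in Lamda Cyhalothrin, 5.99 in Bifenthrin and 5.80 in Phenanthrene, so a pesticide of the other class came closer to the peak than either pyrethroid. DM03690 had the same shape, with a mean of 10.67 in Permethrin and 10.66 in Atrazine, and the arrays of these chemicals overlapped. It was at least 29.5-fold higher in Permethrin than in 20 hydroxyecdysone (mean 5.71), where no array was above background, and it reached 8.44 in Lamda Cyhalothrin. DM01675, brighter throughout, averaged 14.43 in Permethrin, 13.99 in Atrazine, 13.93 in Arsenic and 13.88 in Diazinon, and 9.49 in Bis2-ethylhexyl phthalate, its lowest chemical.

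The 108 Diazinon members were next highest in Atrazine, which shares the acetone vehicle. The second chemical was Atrazine in 21, Permethrin in 15, Toluene in 11, Dichlorobenzene and Beta-estradiol in 10 each and Parathion, the other organophosphate in acetone, in 4. The median relative level was 0.79 in Atrazine, 0.68 in Methylfarnesoate, 0.66 in Beta-estradiol, 0.63 in Toluene, 0.59 in Parathion, 0.55 in Permethrin and 0.31 in Chlorpyrifos. For the 580 other variable probes it was 0.57 in Atrazine, 0.54 in Methylfarnesoate and 0.54 in Chlorpyrifos. Copper was the lowest chemical of 57 of the 108 members. The Copper arrays disagreed among themselves: the 2 close pairs of arrays in the lowest chemical differed by more than 1 in 20 of the 60 members lowest in Copper, and in 16 of the 204 lowest elsewhere.

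Divided at the midpoint by Permethrin, a split chosen after the values were seen, the Diazinon members gave groups with unlike levels in other chemicals. Their relative level in Permethrin was spread around the midpoint, with quartiles of 0.41 and 0.72. The groups thus come from the cut, and whether the members are of distinct kinds was not tested. In 69 members, of which 31 were lowest in Copper, Permethrin lay over the midpoint by the split itself. Their median relative level was 0.86 in Atrazine and 0.69 in Parathion, and 0.36 in Toluene, 0.35 in Bifenthrin, 0.31 in Phenanthrene and 0.30 in Copper. The Permethrin members had 0.05 in Toluene and 0.57 in Copper. In the other 39, of which 26 were lowest in Copper, the median was 0.75 in Beta-estradiol, 0.70 in Methylfarnesoate and 0.69 in Toluene, and 0.11 in Nickel and 0.00 in Copper. DM04858 belongs to the first group: it had 11.45, 11.42, 11.73 and 11.81 in Diazinon, against 6.59, 6.57, 6.76 and 6.63 in Lamda Cyhalothrin, with means of 11.38 in Permethrin, 11.36 in Atrazine and 11.03 in Parathion. DM04790 belongs to the second: it had 11.20, 11.20, 11.26 and 11.34 in Diazinon, against 6.59, 5.99, 5.96 and 6.54 in Copper, with means of 10.33 in Toluene and 7.55 in Permethrin. The Diazinon arrays of both probes lay far above those of their lowest chemical, yet the chemicals in between came in a different order. DM06747, with 14.79, 14.70, 14.59 and 14.56 in Diazinon, was over its midpoint in 34 chemicals, and its Copper arrays read 11.58, 7.91, 7.77 and 11.51. Its span of 4.97 rested in part on Copper replicates 2 and 3.

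The 33 Chlorpyrifos members were next highest in Toxaphene, an organochlorine insecticide dosed in ethanol. Toxaphene was the second chemical of 11 members, Chloroform of 6, and Toxaphene lay over the midpoint in all 33, with a median relative level of 0.89. The median was 0.79 in Bis2-ethylhexyl phthalate, 0.72 in Aroclor, 0.66 in Parathion and 0.58 in Methylfarnesoate. It was only 0.09 in Diazinon, which lay over the midpoint in 4 members. In the 580 other variable probes Toxaphene lay over the midpoint in 286 and Diazinon in 322, with medians of 0.49 and 0.54. DM09681 had 12.88, 12.95, 13.12 and 13.06 in Chlorpyrifos, against 8.17, 8.20, 8.21 and 8.20 in 20 hydroxyecdysone, with means of 12.36 in Parathion and 8.82 in Diazinon. DM09003 had 10.23, 10.17, 10.37 and 10.31 in Chlorpyrifos and means of 9.24 in Toxaphene, 8.23 in Aroclor, 7.63 in Parathion and 6.01 in Diazinon. It was at least 19.4-fold higher in Chlorpyrifos than in PonasteroneA (mean 5.65), where no array was above background. DM08495 averaged 11.24 in Chlorpyrifos, 10.48 in Parathion and 7.04 in Diazinon, so in these 3 probes the organophosphates separated in the same order.

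The 11 Parathion members were close to their peak in several other chemicals. The peak exceeded the second chemical by a median of 0.05. The median relative level was 0.89 in Nickel, 0.84 in Chlorpyrifos, 0.74 in Atrazine and 0.35 in Diazinon. The 580 other variable probes had 0.49 in Nickel, 0.54 in Chlorpyrifos, 0.57 in Atrazine and 0.54 in Diazinon. DM06652 averaged 15.38 in Parathion and 15.38 in Nickel, and 10.45 in 20 hydroxyecdysone. DM03155 had 11.21, 10.99, 11.09 and 11.19 in Parathion, against 6.63, 6.74, 6.62 and 6.63 in 20 hydroxyecdysone. Its arrays overlapped those of Toxaphene (mean 11.10). DM09061 averaged 13.38 in Parathion, 13.35 in Nickel, 13.20 in Chlorpyrifos and 8.97 in 20 hydroxyecdysone.

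The 17 Lamda Cyhalothrin members stood near their peak in Bifenthrin, a pyrethroid of the same vehicle. Bifenthrin was the second chemical of 5 and lay over the midpoint in 16, with a median relative level of 0.84, while Permethrin had 0.46 and lay over the midpoint in 7. Over the 580 other variable probes Bifenthrin lay over the midpoint in 334 and Permethrin in 269, with medians of 0.55 and 0.47. DM12065 had 13.66, 13.65, 13.58 and 13.65 in Lamda Cyhalothrin, against 8.83, 8.73, 8.68 and 8.98 in Dichlorobenzene, with means of 13.14 in Bifenthrin and 10.42 in Permethrin. DM05207 had 10.84, 10.78, 10.91 and 10.89 in Lamda Cyhalothrin, against 6.36, 6.44, 6.36 and 6.29 in Dichlorobenzene. Its mean was 10.19 in Bifenthrin, 9.85 in Methoxychlor and 7.63 in Permethrin. DM04583 averaged 11.46 in Lamda Cyhalothrin, 11.09 in Bifenthrin and 8.35 in Permethrin. In all 3 the chemical after Bifenthrin was Methoxychlor, an organochlorine in the same vehicle, and the lowest was Dichlorobenzene.

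The 3 Bifenthrin members, DM06785, DM00082 and DM08829, barely peaked there. Their mean in Bifenthrin exceeded the second chemical by 0.01 to 0.02, which was within the overlap of the arrays. DM06785 averaged 15.84 in Bifenthrin and 15.84 in Beta-estradiol, DM00082 averaged 9.97 in Bifenthrin and 9.95 in Beta-estradiol, and DM08829 averaged 15.99 in Bifenthrin, where 3 of 4 arrays were saturated. The median relative level of the 3 members was 0.93 in Lamda Cyhalothrin and 0.82 in Permethrin, but 1.00 in Beta-estradiol. The lowest arrays came in pairs: DM06785 read 13.04, 10.07, 10.03 and 12.99 in Copper, and DM08829 read 13.35, 12.22, 11.94 and 13.24 in Arsenic.

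**Figure D3:**
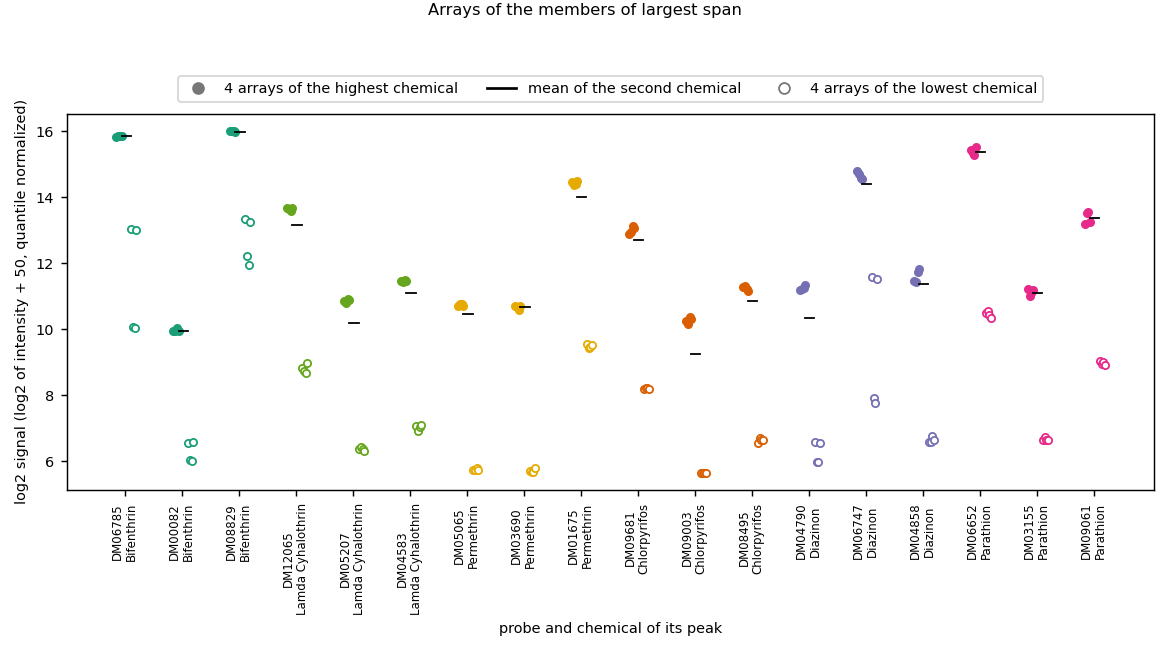
For the 3 members of largest span of each pesticide, filled points are the 4 arrays of the highest chemical, a bar is the mean of the second chemical and open points are the 4 arrays of the lowest chemical, on the log2 signal scale. The arrays of the peak lie close together, the second chemical is often close to them (DM03690, 10.67 in Permethrin and 10.66 in Atrazine), and the Copper arrays of DM06747 spread between 7.77 and 11.58.

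The place of the peak depended on how arrays were brought to a common scale. With each array centred on its median in place of quantile normalisation, 193 of the 264 members peaked in the same chemical and 165 still met the rule. The peak was the same for 98 of 108 Diazinon members, 65 of 92 Permethrin members, 13 of 17 Lamda Cyhalothrin members, 12 of 33 Chlorpyrifos members, 4 of 11 Parathion members and 1 of 3 Bifenthrin members.

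Whether members of 1 pesticide were also high in another pesticide of its class was tested in contrasts that leave out the chemical of the peak. Each contrast compared the other pesticides of the class with chemicals in the same vehicle, across all 14338 probes, by limma with Benjamini-Hochberg adjustment, with an adjusted p under 0.05 as the threshold for a call. The means of all chemicals enter the rule through the highest and the lowest, so a contrast that holds a member's lowest chemical is partly set by the choice. A wide span also makes a call likely: the 580 variable probes highest in the other 30 chemicals are given beside the members, with the share of all probes called. The residual spread came from arrays of 1 chemical, not from chemicals of 1 class.

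By level, most members of the Lamda Cyhalothrin set were also higher in Bifenthrin than in the other ethanol chemicals. Against the 13 ethanol chemicals other than Lamda Cyhalothrin, 13 of the 17 members were higher in Bifenthrin, none was lower and 4 were not called, beside 15.9% higher and 16.8% lower over all probes. Among the 580 variable probes highest elsewhere, 33.1% were higher and 27.6% lower. The median difference of the 17 members was 0.89 on the log2 scale, against -0.01 over all probes. A difference of at least 1 was reached by 6 members upward and none downward, beside 0.411% and 0.593% of all probes. The lowest chemical of 9 members was on the ethanol side; among the 8 for which it was in neither arm, 4 were higher and none lower. DM05207 read 10.19, 10.19, 10.22 and 10.15 in Bifenthrin, against 6.29 to 9.98 (median 7.11) on the 52 arrays of the other ethanol chemicals. The groups did not overlap, and the difference was 2.75 ± 0.07 (SE). DM04583 was higher by 2.68 ± 0.08 (SE), although 1 or more of the 52 arrays reached the Bifenthrin arrays. Both probes have their lowest chemical, Dichlorobenzene, among the ethanol chemicals, so that the rule used these differences in part. In the reverse contrast, 1 of the 3 Bifenthrin members was higher in Lamda Cyhalothrin than in the ethanol chemicals other than Bifenthrin (DM00082, 0.54 ± 0.17, SE; limma, adjusted p = 0.00526), beside 18.4% higher and 19.6% lower over all probes. It did not reach a difference of 1, which 1.08% of all probes did upward and 0.956% downward. That call was lost when the arrays were averaged as close pairs and with the deposited ratios.

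Permethrin gave the Bifenthrin and Lamda Cyhalothrin members no common direction. Against Phenanthrene, 5 of these 20 members were higher in Permethrin, 3 were lower and 12 were not called, beside 24.6% higher and 32.4% lower over all probes and 36.4% higher and 40.3% lower among the 580. Their median difference was -0.15, against -0.02 over all probes, and 2 members were higher and 2 lower by at least 1, beside 5.89% and 6.16% of all probes. With median centring the split was 5 higher and 8 lower. DM06070 read 13.18, 13.13, 13.03 and 13.23 in Permethrin, against 11.62, 11.55, 11.56 and 11.55 in Phenanthrene (difference 1.57 ± 0.14, SE; limma, adjusted p = 2.19e-19). DM12298 went the other way, with 11.60, 11.59, 11.59 and 11.57 in Permethrin, against 14.20, 14.46, 14.52 and 14.20 in Phenanthrene (difference -2.76 ± 0.14, SE; limma, adjusted p = 8.32e-37). In both probes the groups were far apart, in opposite directions.

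Most Permethrin members were not higher in Bifenthrin and Lamda Cyhalothrin. Of the 92, 18 were higher in these pyrethroids than in the 13 other ethanol chemicals, 41 were lower and 33 were not called, beside 18.5% higher and 21.5% lower over all probes. Among the 580, 38.6% were higher and 36.2% lower. The 92 members had a median difference of -0.14, against -0.01 over all probes. No member was higher by at least 1, beside 0.551% of all probes, and 1 was lower by at least 1, beside 0.425%. It was DM07717, with a difference of -1.66 ± 0.25 (SE), whose lowest chemical is Bifenthrin, so that its low level here was used by the rule. Its 8 pyrethroid arrays read 10.10 to 10.60, against 10.53 to 15.10 on the 52 arrays of the other ethanol chemicals, with some overlap. DM06797 was higher by just under 1 (1.00 ± 0.08, SE), with 10.71 to 11.68 in the pyrethroids, against 7.78 to 12.48, and its lowest chemical, PonasteroneA, is one of the other ethanol chemicals. The lowest chemical of 4 members was 1 of these pyrethroids and that of 60 members was on the side of the other ethanol chemicals, and among the 28 for which it was in neither arm, 7 were higher and 7 lower.

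Diazinon members were mostly lower in Parathion than in Atrazine, the herbicide of the same vehicle. Of the 108, 5 were higher in Parathion, 65 were lower and 38 were not called, beside 20.4% higher and 16.1% lower over all probes and 23.4% higher and 38.6% lower among the 580. The median over the 108 members was -0.57, against 0.01 over all probes, and no member had its lowest chemical in this contrast. By at least 1, 1 member was higher and 24 were lower, beside 1.25% and 2.68% of all probes. DM03143 read 9.22, 9.17, 9.16 and 9.08 in Parathion, against 11.03, 10.69, 10.65 and 11.03 in Atrazine (difference -1.69 ± 0.22, SE; limma, adjusted p = 9.23e-11). DM08779 read 7.58, 7.21, 7.24 and 7.60 in Parathion, against 9.22, 8.85, 8.91 and 9.27 in Atrazine, and its difference was -1.65 ± 0.15 (SE; limma, adjusted p = 5.73e-17). Neither probe had overlapping groups. DM08193 was higher, with 11.32, 10.14, 10.21 and 11.26 in Parathion, against 8.80, 8.33, 8.30 and 8.75 in Atrazine (difference 2.19 ± 0.41, SE; limma, adjusted p = 5.72e-06). DM08956 was higher by 0.71 ± 0.26 (SE; limma, adjusted p = 0.0215), with overlapping arrays, and it was not called without replicate 1 (0.33) or without replicate 4 (0.36), with 10 added in place of 50, with close pairs averaged or with the deposited ratios. The split was 10 higher and 43 lower with median centring, and 2 higher and 39 lower with the arrays averaged as close pairs.

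The Parathion members likewise sat lower in Diazinon than in Atrazine. Of the 11, 1 was higher in Diazinon, 9 were lower and 1 was not called, beside 18.3% higher and 16.7% lower over all probes and 16.6% higher and 34.7% lower among the 580. The median of their differences was -1.11, against 0.01 over all probes, and none was higher and 7 were lower by at least 1, beside 1.6% and 1.76% of all probes. Diazinon was the lowest chemical of 1 of them, DM08521, and of the other 10, 1 was higher and 8 were lower. This contrast shares the Atrazine arrays with the one before it. DM08521 read 9.28, 9.39, 7.41 and 7.40 in Diazinon, against 11.29, 11.36, 11.38 and 11.28 in Atrazine, a difference of -2.96 ± 0.21 (SE) that the rule used in part. DM09208 read 14.01, 14.07, 11.69 and 11.74 in Diazinon, against 15.31, 15.29, 15.46 and 15.31 in Atrazine (difference -2.46 ± 0.20, SE; limma, adjusted p = 5.29e-20). In both probes replicates 3 and 4 of Diazinon lay more than 1 below replicates 1 and 2, and all 4 lay below Atrazine. DM05840 was the member called higher, with 13.31, 13.18, 13.09 and 13.13 in Diazinon, against 12.58, 12.66, 12.76 and 12.59 in Atrazine (difference 0.53 ± 0.09, SE; limma, adjusted p = 9.45e-07).

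Most of the 119 Diazinon and Parathion members were lower in Chlorpyrifos than in the other methanol chemicals. The 119 hold 108 Diazinon members and 11 Parathion members, whose calls were not counted apart. The median relative level of the Diazinon members was 0.31 in Chlorpyrifos, against 0.60 in Aroclor and 0.68 in Methylfarnesoate. That of the Parathion members was 0.84 in Chlorpyrifos, against 0.74 in Aroclor and 0.74 in Methylfarnesoate. Of the 119, 8 were higher in Chlorpyrifos than in the mean of Aroclor and Methylfarnesoate, 106 were lower and 5 were not called, beside 27.1% higher and 21.5% lower over all probes and 31.9% higher and 45.9% lower among the 580. Over the 119 members the median difference was -1.10, against 0.01 over all probes, and none was higher and 72 were lower by at least 1, beside 2.11% and 3.52% of all probes. Chlorpyrifos was the lowest chemical of 5; of the other 114, 8 were higher and 101 lower. DM05840 read 10.51, 10.65, 10.44 and 10.36 in Chlorpyrifos, against 12.49 to 13.22 on the 8 arrays of Aroclor and Methylfarnesoate (difference -2.30 ± 0.08, SE; limma, adjusted p = 4.91e-50). DM08717 read 5.94, 5.85, 5.98 and 5.87 in Chlorpyrifos, against 6.72 to 9.34, and 3 of the 4 Chlorpyrifos arrays were above background. DM03155 was among those higher, with 10.30, 10.31, 11.39 and 11.48 in Chlorpyrifos, against 9.03 to 10.56 (difference 0.90 ± 0.22, SE; limma, adjusted p = 0.000231). The groups overlapped, and replicates 3 and 4 alone lay above every array of the other side.

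The Chlorpyrifos members split in the acetone organophosphates. Of the 33, 6 were higher in the mean of Diazinon and Parathion than in Atrazine, 11 were lower and 16 were not called, beside 18.9% higher and 15.5% lower over all probes and 17.9% higher and 41.2% lower among the 580. These members had a median difference of -0.01, against 0.01 over all probes, and none was higher and 1 lower by at least 1, beside 0.509% and 1.33% of all probes. The mean of the pair hides unlike levels: Parathion lay over the midpoint in 21 of these members and Diazinon in 4. The lowest chemical was Diazinon or Parathion for 9 members and Atrazine for 1, and it was in neither arm for 23, of which 5 were higher and 4 lower. DM11842, the member lower by at least 1 (difference -1.02 ± 0.20, SE), has Diazinon as its lowest chemical, so that the rule used its low level. It read 6.28 to 10.09 over the 8 organophosphate arrays, against 9.30 to 9.83 in Atrazine. DM09003 was higher by 0.88 ± 0.18 (SE; limma, adjusted p = 2.27e-05), with 5.65 to 7.86, against 5.67 to 6.08, and only 2 of the 4 Atrazine arrays were above background. That call was lost with the deposited ratios (limma, adjusted p = 0.106). The split was 10 higher and 7 lower with median centring, 4 and 14 with the deposited ratios and 3 and 3 with the arrays averaged as close pairs, and 11 members were called in all without replicate 4.

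**Figure D4:**
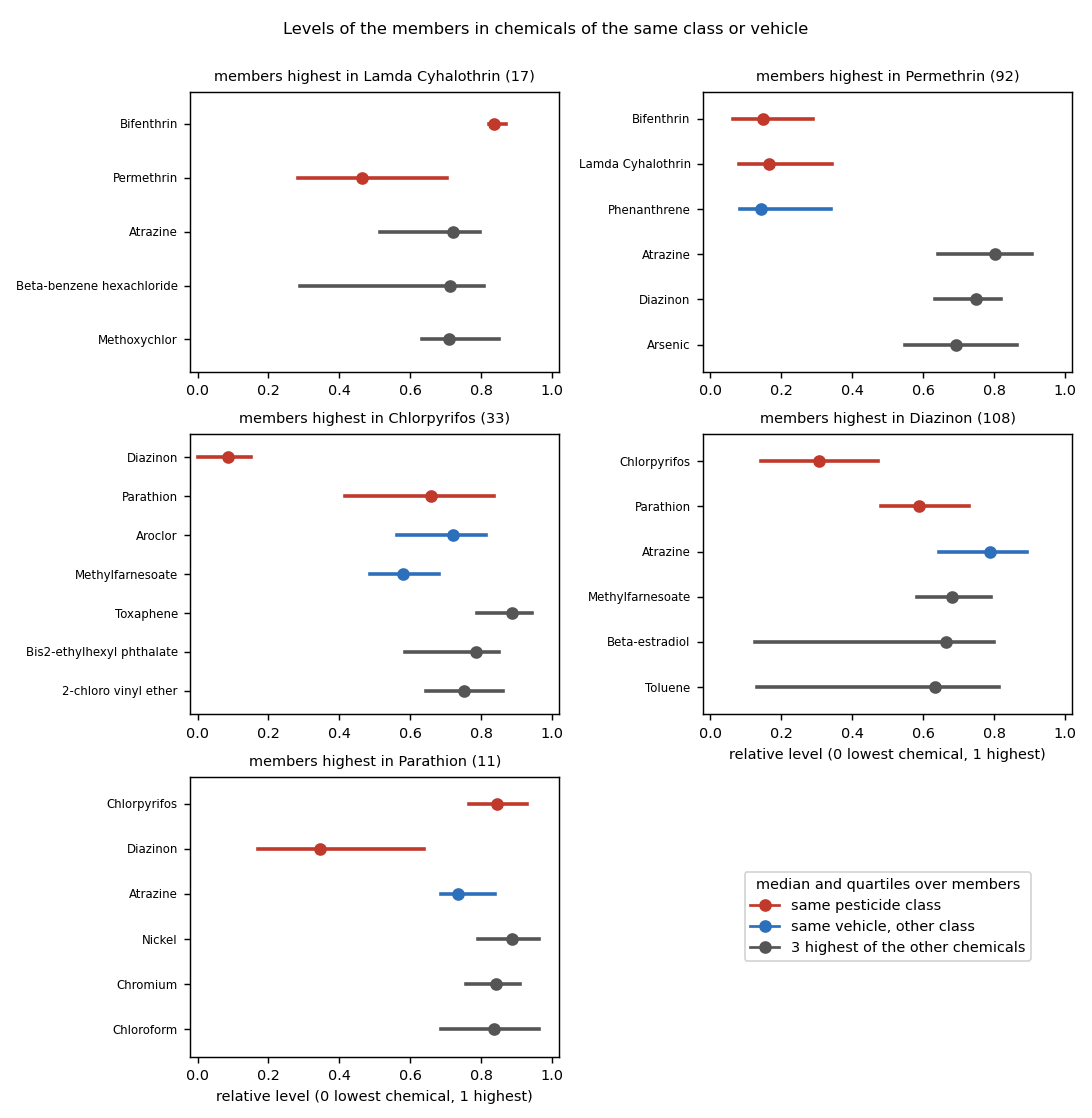
Each panel shows the members of 1 pesticide, with points and bars giving the median and quartiles of their relative level (0 lowest chemical, 1 highest) in the other pesticides of the class, in chemicals of the same vehicle and in the 3 highest of the other chemicals. Permethrin members lie at 0.14 to 0.17 in Bifenthrin, Lamda Cyhalothrin and Phenanthrene and at 0.80 in Atrazine, while Lamda Cyhalothrin members lie at 0.84 in Bifenthrin. Bifenthrin members (3) are not drawn, and in the Lamda Cyhalothrin panel 2 of the 3 other chemicals, Beta-benzene hexachloride and Methoxychlor, share its vehicle.

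Whether the vehicle alone went with a high level was examined by setting the chemicals of each vehicle other than the 6 pesticides against chemicals of other vehicles. The arms hold other pesticides: the acetone arm is Atrazine alone, and the ethanol arm includes Methoxychlor, Toxaphene and Beta-benzene hexachloride. The lowest chemical lay on the side of the other vehicles for 118 of 119, 91 of 92, 33 of 33 and 11 of 20 members in these contrasts. Their counts are thus partly fixed by the rule. Only 1 member, in the Atrazine contrast, had its lowest chemical in neither arm, and it was not called. No vehicle was measured apart from its chemicals in these values.

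Atrazine stood high in the members of the acetone organophosphates. Of the 119 Diazinon and Parathion members, 92 were higher in Atrazine than in the 33 chemicals of other vehicles, none was lower and 27 were not called, beside 21.4% higher and 33% lower over all probes and 41.2% higher and 35.5% lower among the 580. Their median difference was 0.85, against -0.03 over all probes, and 52 were higher and none lower by at least 1, beside 3.99% and 1.74% of all probes. DM10046, highest in Diazinon (mean 11.26), read 10.83, 10.68, 10.67 and 10.88 in Atrazine, against 6.21 to 10.34 (median 7.20) on the 132 arrays of other vehicles (difference 2.96 ± 0.11, SE). DM11460 had a difference of 2.68 ± 0.11 (SE), and in both probes the Atrazine arrays lay above all the others, which include the lowest chemical of each. Within the Diazinon members Atrazine exceeded Parathion in 94 of 108, and within the Parathion members it exceeded Diazinon in 9 of 11. These counts were not made over other probes. The 580 leaned the same way: 38.6% were lower and 23.4% higher in Parathion than in Atrazine. In Diazinon against Atrazine, 34.7% of them were lower and 16.6% higher.

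Phenanthrene, which shares DMSO with Permethrin, stood low in the Permethrin members. Of the 92, 7 were higher in Phenanthrene than in the 34 chemicals of other vehicles, 75 were lower and 10 were not called, beside 24.3% higher and 18.5% lower over all probes and 28.4% higher and 36.4% lower among the 580. Over the 92 members the median difference was -0.64, against 0.01 over all probes, and 1 was higher and 20 were lower by at least 1, beside 0.677% and 2.04% of all probes. DM06032 read 10.45, 10.25, 10.34 and 10.33 in Phenanthrene, against 9.68 to 13.73 (median 12.13) on the 136 arrays of other vehicles, and its difference was -1.77 ± 0.11 (SE; limma, adjusted p = 9.60e-28). DM07717 was higher, with 14.52, 14.68, 14.60 and 14.60 in Phenanthrene, against 10.10 to 15.10 (difference 1.93 ± 0.33, SE), and its lowest chemical, Bifenthrin, is among those. Atrazine, in acetone, exceeded Phenanthrene in 83 of the 92 Permethrin members, by a median of 2.40. This count was not made over other probes.

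The remaining vehicles gave smaller differences. Of the 33 Chlorpyrifos members, 19 were higher in Aroclor and Methylfarnesoate than in chemicals of other vehicles, 3 were lower and 11 were not called, beside 20.2% higher and 26.5% lower over all probes and 37.1% higher and 33.4% lower among the 580. The median difference was 0.22, against -0.01 over all probes, with 4 members higher and none lower by at least 1, beside 0.683% and 0.265% of all probes. The largest was that of DM07136, 1.43 ± 0.10 (SE), with its lowest chemical on the side of the other vehicles. Of the 20 Bifenthrin and Lamda Cyhalothrin members, 14 were higher in the other 13 ethanol chemicals than in chemicals of other vehicles, 4 were lower and 2 were not called, beside 39.4% higher and 26.4% lower over all probes and 43.4% higher and 37.1% lower among the 580. The median difference was 0.20, against 0.01 over all probes, with 1 member higher and none lower by at least 1, beside 0.195% and 1.87% of all probes. The split was 9 higher and 8 lower with median centring. DM07212 differed by 1.56 ± 0.06 (SE), also with its lowest chemical on that side.

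**Figure D5:**
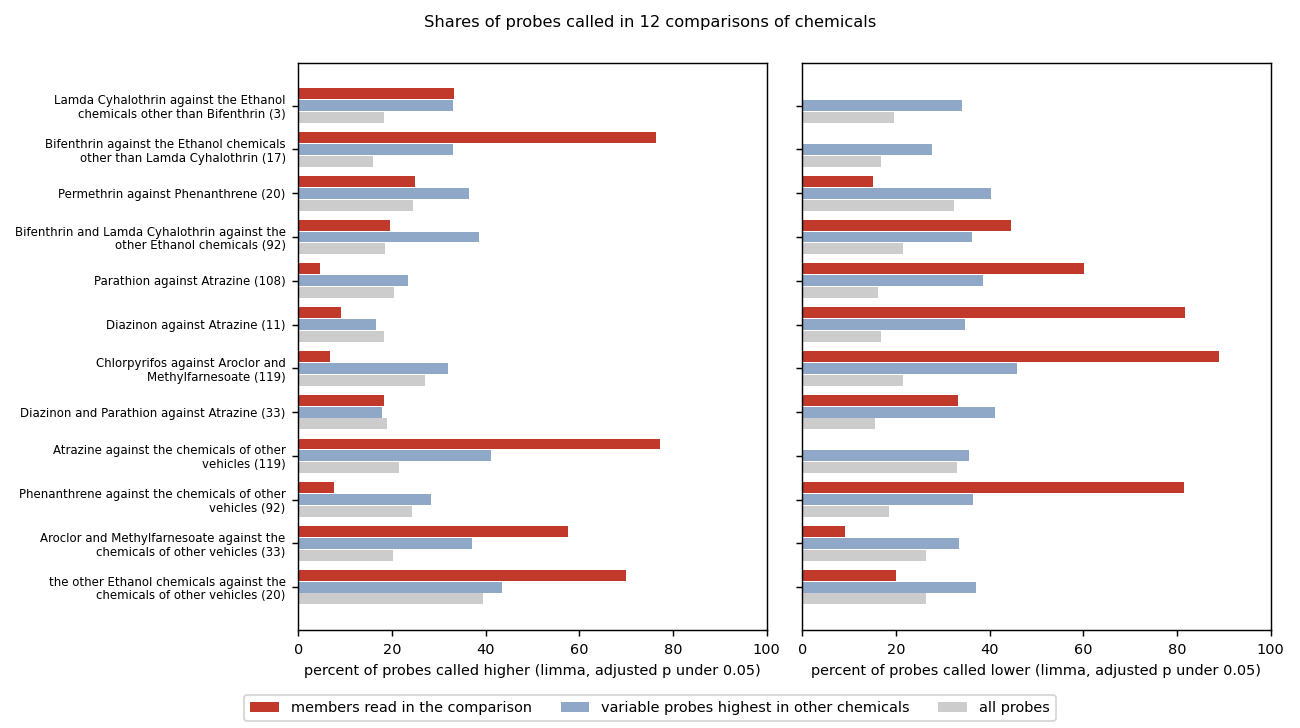
Bars give, for the 12 contrasts, the percent of probes called higher and lower (limma, adjusted p under 0.05) among the members read in the contrast, the 580 variable probes highest in other chemicals and all 14338 probes. In Chlorpyrifos against Aroclor and Methylfarnesoate, 89.1% of the members were lower, against 45.9% of the 580 probes and 21.5% of all probes.

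The deposited table of log2 ratios sets each array against the control series that its label names. It holds 263 of the 264 members and 13481 probes. These values come from the arrays that chose the members, so the ratio at the peak is a description; the spread of the controls is not in it. The median over all probes lay between -0.032 and 0.038 on each array. At the peak, the mean ratio of 4 arrays passed 1 in 189 of the 263 members. Permethrin members had a median ratio of 4.03 (0.17 to 9.67) and 90 of 91 passed 1, beside 13.3% of all probes in Permethrin. A ratio can exceed the span: DM07591 had a ratio of 9.67 and a span of 3.59, and DM05274 had 9.43 and 4.73. The levels carry an added constant that understates changes of dim probes, so the sizes of ratios and levels cannot be compared there. Parathion members had a median of 1.78 and 10 of 11 passed 1, beside 9.05%. Diazinon members had a median of 1.22 (-0.08 to 8.30) and 63 of 108 passed 1, beside 10.1%. Lamda Cyhalothrin members had a median of 1.15 and 10 of 17 passed 1, beside 4.82%. Chlorpyrifos members had a median of 0.70 and 15 of 33 passed 1, beside 2.68%. Of the Bifenthrin members, 1 of 3 passed 1, beside 2.57%. For many Diazinon and Chlorpyrifos members the peak among chemicals was therefore less than 1 above the level that the deposited ratio takes as control.

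The ratios in other chemicals, each against its own control series, matched the order of the levels in part. Permethrin members had a median ratio of 2.58 in Diazinon, where 72 of 91 passed 1 beside 10.1% of all probes, 2.80 in Atrazine, 2.00 in Methylfarnesoate and 1.65 in Parathion. Their median was 0.49 in Lamda Cyhalothrin, 0.15 in Bifenthrin, 0.11 in Phenanthrene and -0.08 in Chlorpyrifos. Still, 27 of the 91 passed 1 in Lamda Cyhalothrin, beside 4.82% of all probes, and 7 in Bifenthrin, beside 2.57%. Diazinon members had a median ratio of 1.66 in Methylfarnesoate, where 97 of 108 passed 1 beside 9.34% of all probes, 1.06 in Aroclor, 0.01 in Atrazine, -0.01 in Chlorpyrifos, -0.13 in Permethrin and -0.90 in Parathion. The median in Methylfarnesoate thus exceeded the 1.22 in Diazinon itself, and Atrazine, next highest by level, was about equal to Chlorpyrifos by ratio. Chlorpyrifos members had a median ratio of -2.04 in Diazinon, with 25 of 33 under -1, beside 7.09% of all probes. Lamda Cyhalothrin members had a median ratio of only 0.32 in Bifenthrin, where 5 of 17 passed 1, beside 2.57% of all probes. Their median was 0.82 in Atrazine, 0.71 in Methylfarnesoate, 0.51 in Diazinon and 0.09 in Permethrin. The 69 Diazinon members with Permethrin over the midpoint had a median ratio of 2.20 in Diazinon, 2.15 in Permethrin, 1.11 in Atrazine and 1.07 in Parathion. The other 39 had 1.03 in Diazinon, -0.30 in Atrazine, -0.94 in Permethrin and -1.24 in Parathion. Diazinon, Parathion and Atrazine share 1 control series, so their ratios are not independent.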

How the data were processed

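The deposited scanner tables hold, per the file headers, Cy3 spot intensity (foreground and local background medians) and spot flags. The deposited value table holds log2 ratios of the same arrays, and the submitters' processing notes name limma. Each of its 144 columns correlated best with the array of its own label (lowest correlation 0.60, median 0.69). Over 3193 bright probes, differences between arrays of 1 vehicle had slopes of 0.930 to 1.07. The ratios are therefore log2 and positive when the exposed animals are higher. The slope was not checked for dim probes. Column medians lay between -0.032 and 0.038, and how the controls entered is not given in the sources used here. The 60 columns of 20 control arrays in 5 tables match no sample and were not used.

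Background was subtracted with a floor at 0, 50 was added, log2 was taken, spots of a probe were averaged and arrays were quantile normalised. The added 50 understates changes of dim probes. A fold is given as "at least" where no array of the lower side was above background. Contrasts of chemical means were fitted with limma 3.58.1 (R 4.3.3) over all 36 chemicals, with Benjamini-Hochberg adjustment over 14338 probes. The fit was tested on simulated data. The simulated arrays were independent of each other, so that test does not cover the close pairs of arrays. Tables and plots used Python 3.11.15, numpy 2.4.6, pandas 2.3.3 and matplotlib 3.10.9. The number of arrays limits the precision. No slide or scan date is given, so a chemical and its batch cannot be told apart. The members, contrasts and lists were chosen with earlier results of these data known. Named probes are the 3 of largest span per pesticide, up to 2 called members of largest difference in each direction per contrast (of which the text gives those that show the spread), and those at the edges of the rule. Where a contrast holds the lowest chemical of a named probe and its difference runs that way, no p is given. The split of the Diazinon members, the pairs of chemicals set side by side, the limits on the number of chemicals, the counts by lowest chemical and the averaging of close pairs were chosen after seeing the data.

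The replicate numbers of the labels were checked as pairs in 6 pairs of chemicals, which leave out the other ethanol chemicals and the contrasts between vehicles. Among those 6, deviations from the group mean correlated above 0.1 for every number only in Permethrin with Phenanthrene (0.172 to 0.198) and Chlorpyrifos with Methylfarnesoate (0.301 to 0.361). In Parathion with Atrazine they ran from -0.258 to -0.129. The pairing comes from the numbers alone.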

Additional observations from a re-analysis of the deposited data

Results flagged for a closer look

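For the members of largest span, 84 groups of 4 arrays were searched for a lone array, and 3 held one, where chance alone gives about 1 in 20. DM12065 read 13.58 on Lamda Cyhalothrin replicate 3, below the 13.65, 13.65 and 13.66 of the other arrays. DM05065 read 5.78 on Chlorpyrifos replicate 3, above 5.72, 5.72 and 5.73, with no array above background. DM03155 read 6.74 on 20 hydroxyecdysone replicate 2, above 6.62, 6.63 and 6.63. All 3 gaps are small beside the spans of these probes, which exceed 4.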

How the results depend on the processing

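No named probe changed direction under any setting run. The replicate block changed none of the 12 counts of called members, for instance 8 in Permethrin against Phenanthrene and 106 lower in Chlorpyrifos against Aroclor and Methylfarnesoate. Median centring moved the median of all probes by 0.10 in Permethrin against Phenanthrene and by -0.10 in Parathion against Atrazine; it called 13 members in the first and left 165 members under the rule. Averaging close pairs, added after seeing the data, called 0 members in Lamda Cyhalothrin against ethanol chemicals, 41 in Parathion against Atrazine and 6 in Diazinon and Parathion against Atrazine. The deposited ratios called 0 in the Lamda Cyhalothrin contrast. A minimum difference of 1 left 0 members in the Lamda Cyhalothrin contrast, 6 in Bifenthrin, 4 in Permethrin against Phenanthrene, 1 in Bifenthrin and Lamda Cyhalothrin, 25 in Parathion against Atrazine, 72 in Chlorpyrifos, 1 in Diazinon and Parathion, 52 in Atrazine, 21 in Phenanthrene, 4 in Aroclor and Methylfarnesoate and 1 in ethanol chemicals. A span over 3.5 with no upper limit left 174 of the members. Leaving out each replicate number in turn gave 11 to 17 called members in Diazinon and Parathion against Atrazine, with the lowest without replicate 4, 58 to 66 in Parathion against Atrazine, 111 to 113 in Chlorpyrifos, 87 to 92 in Atrazine, 79 to 82 in Phenanthrene, 56 to 57 in Bifenthrin and Lamda Cyhalothrin, 20 to 23 in Aroclor and Methylfarnesoate, 17 to 18 in ethanol chemicals, 7 to 8 in Permethrin, 13 in Bifenthrin, 10 in Diazinon and 1 in Lamda Cyhalothrin. The members still selected were then 237 to 243, and 186 to 188 had a ratio over 1. The setting without bad spots left out those flagged bad and kept those flagged as not found. The slide and scan date as a block were not run, since the tables give none. Among the named probes, 28 calls were lost, 17 of them to the minimum of 1. The cause of these shifts was not tested, apart from the minimum itself.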
